A study of Drosophila melanogaster with 6 samples.

Results

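The genes of DNA replication and of the DNA damage response were compared between heads from a pool of fly lines with gene changes driven in glia, described in the labels as bang-sensitive seizure lines, and heads of control flies. A list of 45 genes was taken, 24 that copy DNA or start S phase and 21 that sense or repair damaged DNA or act after damage. A gene was measured where an array row was annotated to that gene alone, under its current symbol or a synonym, and 35 of the 45 had such a row, against 13346 genes in all. They comprised 19 replication genes and 16 damage response genes, each with a row of its own. The 10 genes with no such row were Mcm7, Orc6, geminin, RnrS and dap on the replication side and Rad1, spn-A, Xrp1, rpr and hid on the damage side. They are not analysed here.

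In bang-sensitive lines a mechanical jolt brings on a seizure. Total RNA was prepared from 15 to 25 heads per genotype, from flies of about 3 to 5 days raised at 25 °C, and hybridised to 6 GeneChip Drosophila Gene 1.0 ST arrays. The 3 pool arrays carried equal amounts of RNA from 7 lines, namely SesB-RNAi, COX7A-RNAi, comt-RNAi, nrv2-RNAi, ATPalpha-RNAi, UAS-Dube3a and UAS-htt.12Q.FL, each crossed to repo-GAL4. The 3 control arrays carried RNA of flies with repo-GAL4 and an empty TRiP RNAi vector. Both groups therefore carry repo-GAL4, which drives transgenes in glia and not in neurons. A difference in the pool is an average over 7 lines, and which of them carries it cannot be told apart. The labels do not say whether the 3 arrays of each group represent separate fly cultures, and p-values therefore cover array-to-array spread that may be purely technical.

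Before a cell divides, the origin recognition complex, Cdc6 and the Cdt1 protein load the MCM helicase onto DNA, and the kinases Cdc7 and CycE-Cdk2 start its firing. Behind the helicase, replication protein A covers the bare single strand and PCNA, a ring-shaped clamp, holds the polymerases on the template. Broken or stalled DNA is sensed by the Mre11-Rad50-Nbs complex and the Rad9-Rad1-Hus1 clamp, which pass the signal through the kinases ATM and ATR to Chk2, Chk1 and p53. PCNA and replication protein A also serve DNA repair, which takes place in cells that do not divide. Nearly all cells of the adult fly head, neurons and glia included, have left the cell cycle.

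Values are the deposited array signals on a log2 scale, on which 1 unit is a doubling. Array medians lay between 5.53 and 5.63, and arrays of a group differed from each other by an SD of 0.150 to 0.180 over all rows. Pool and control were compared with limma over all 16322 rows, with Benjamini-Hochberg adjusted p under 0.05 as the threshold. By that rule 473 rows, or 2.9%, were called, 270 of them higher and 203 lower in the pool. The split became 219 higher and 249 lower when the arrays were centred on their medians. That step moved the median difference of all rows to -0.03. The labelled tissue is brain, but whole heads were taken. The neuronal markers elav, nSyb, brp and para had signals of at least 8.65 on all arrays, and the glial markers repo, wrapper, alrm, Gs2 and moody of at least 6.07. In RNA from whole heads, fewer cells of a type and less RNA per cell cannot be told apart.

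Of the 35 measured genes 5 rose in the pool, 1 fell and 29 did not pass the test. The 5 that rose were PCNA, RPA1, Hus1-like, Irbp18 and Gadd45, and the 1 that fell was Cdc7. The 6 called genes are 17.1% of those measured, against 2.9% of all rows. In the upward direction 5 of 35 passed, against 1.65% of all rows, and in the downward direction 1 of 35, against 1.24%. The genes were listed with earlier results of these arrays known, so this share is a description. The median log2 difference was 0.05 over the 35 genes, against -0.00 over all rows. Pool and control values did not overlap in 10 of the 35 genes (28.6%), against 21.5% of all rows.

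Both sets held 3 called genes. Of 19 replication genes 2 rose and 1 fell (15.8% called), and of 16 damage response genes 3 rose and 0 fell (18.8% called). The 1 damage response gene that was lower at an unadjusted p under 0.05 in limma was lok. Both sets had a median log2 difference of 0.05. In the replication set 15 genes were higher and 4 lower in the pool, in the damage response set 11 higher and 5 lower. As deposited, 49.7% of all genes were higher in the pool. These splits depend on the scaling. After centring the arrays on their medians they were 11 and 8 for replication and 9 and 7 for the damage response. That centring lowered every difference by the same amount and moved the median difference of all rows to -0.03. Both sets then had a median of 0.02. After quantile normalization the splits were 17 and 2 for replication and 11 and 5 for the damage response. The 6 called genes kept their direction under both rescalings.

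**Figure D1:**
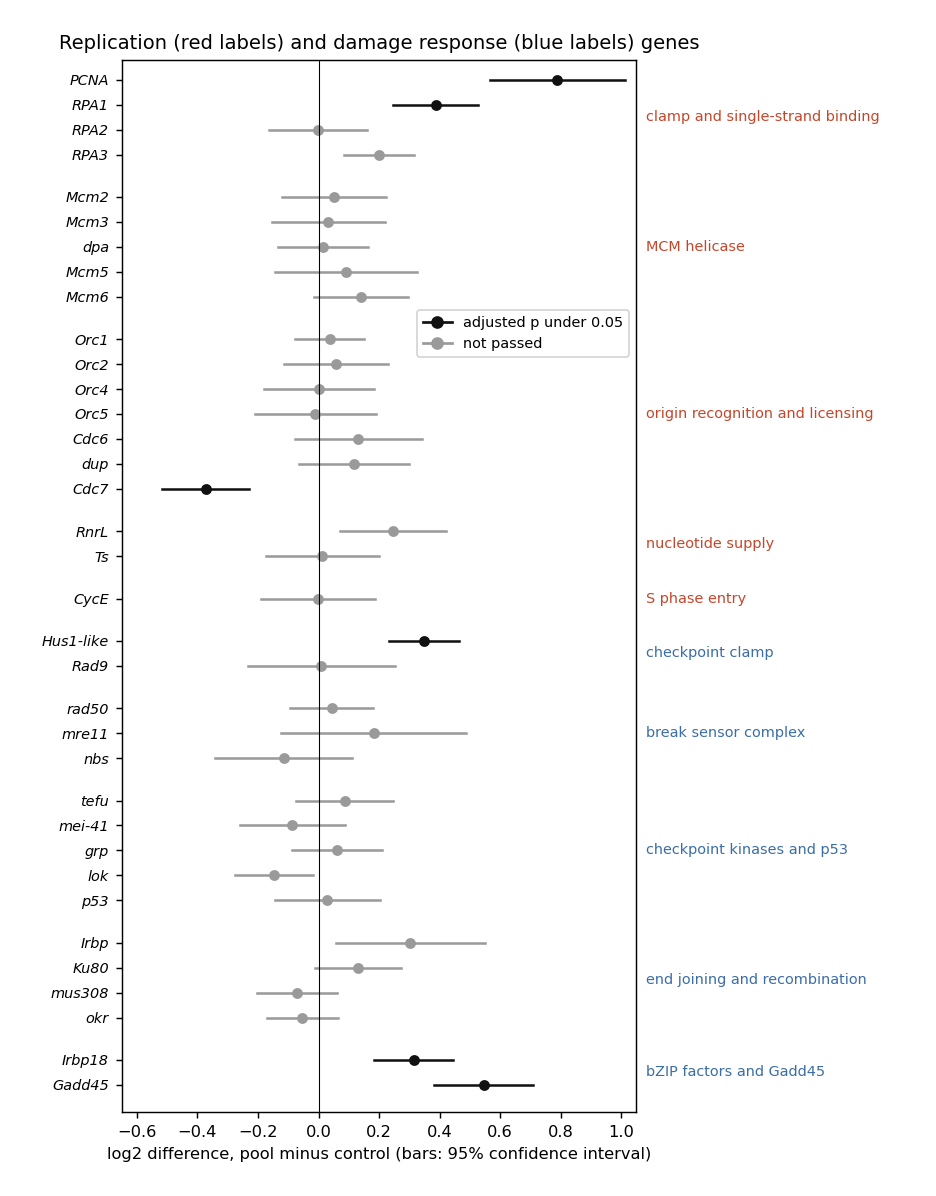
Log2 difference, pool minus control, of the 35 measured genes, grouped by role, with 95% confidence intervals from limma over 3 pool and 3 control arrays; black marks the genes that passed an adjusted p of 0.05. PCNA stands farthest to the right at 0.79, Cdc7 is the 1 called gene to the left of 0, and the MCM and origin recognition genes cluster at 0.

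The replication clamp and the single-strand binding protein held the 2 replication genes that rose. PCNA had signals of 5.85, 5.83 and 5.83 on the pool arrays, against 5.19, 5.13 and 4.82 on the control arrays. The pool arrays lay close together, the control arrays spread over a wider range, and the groups did not overlap. PCNA averaged 5.84 ± 0.01 in the pool and 5.05 ± 0.20 in the control (SD, n = 3 each). The log2 difference of 0.79 (standard error 0.096), which is 1.73-fold, was the largest among the 35 genes and passed at a limma adjusted p of 0.00531.

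RPA1, the large subunit of replication protein A, had signals of 8.25, 8.29 and 8.38 in the pool, against 7.98, 7.86 and 7.93 in the control. All pool arrays lay above all control arrays, and the log2 difference was 0.39 (standard error 0.0601), a 1.31-fold rise at a limma adjusted p of 0.0155. The smallest subunit, RPA3, had 7.55, 7.54 and 7.54 in the pool, against 7.39, 7.33 and 7.31 in the control, again without overlap. Its log2 difference of 0.20 did not pass the test (limma adjusted p = 0.0934). RPA2, the middle subunit, averaged 4.65 ± 0.10 in the pool and 4.65 ± 0.08 in the control (SD, n = 3 each), and its arrays overlapped. The 95% interval of its log2 difference ran from -0.16 to 0.16. The 3 subunits form 1 complex, but whether their differences are unequal was not tested.

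**Figure D2:**
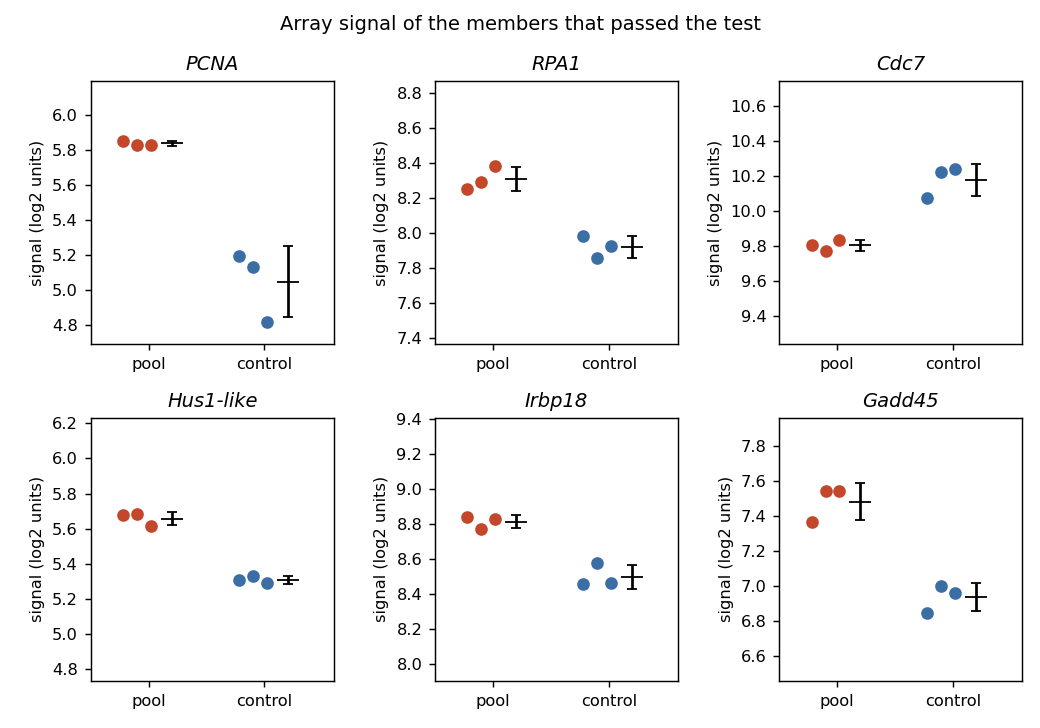
Array signal in log2 units of the 6 genes that passed the test, with 3 pool arrays (left) and 3 control arrays (right) in each panel; black marks give the mean and SD, and all panels span the same number of units. Pool lies above control without overlap in 5 panels and below it in that of Cdc7.

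None of the 5 measured MCM helicase genes passed in limma, and 0 had an unadjusted p under 0.05. Their log2 differences ran from 0.01 for dpa, which encodes Mcm4, to 0.14 for Mcm6, and all 5 were higher in the pool as deposited. After median centring, which put the median difference of all rows at -0.03, 3 were higher and 2 lower. Mcm2 had signals of 4.26, 4.21 and 4.17 in the pool, against 4.19, 4.02 and 4.28 in the control, and Mcm6 had 4.42, 4.33 and 4.39 in the pool, against 4.17, 4.19 and 4.36 in the control. In both genes the groups overlapped, as they did in Mcm3, Mcm5 and dpa. The highest upper bound of a 95% interval was 0.32, that of Mcm5.

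The genes that mark and license origins did not pass either, with the exception of the kinase gene Cdc7. The origin recognition genes Orc1, Orc2, Orc4 and Orc5 had log2 differences of -0.01 to 0.06, and the helicase loaders Cdc6 and dup, which encodes Cdt1, stood at 0.13 and 0.12. These 6 had overlapping groups, 0 of them had an unadjusted p under 0.05 in limma, and the highest upper bound of a 95% interval was 0.34, that of Cdc6. Cdc7 had signals of 9.81, 9.77 and 9.84 on the pool arrays, against 10.07, 10.22 and 10.24 on the control arrays. All pool arrays lay below all control arrays, and Cdc7 fell by 0.37 on the log2 scale with a standard error of 0.0615 (limma adjusted p = 0.0207). The signal in the control was 1.30 times that in the pool. Its activating subunit, encoded by chif and named here after its values were seen, averaged 6.08 ± 0.17 in the pool and 6.07 ± 0.03 in the control (SD, n = 3 each), with overlapping groups.

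Of the genes that supply deoxynucleotides, RnrL, the large subunit of ribonucleotide reductase, had signals of 4.17, 4.11 and 3.92 in the pool, against 3.75, 3.85 and 3.86 in the control. The groups did not overlap, but the log2 difference of 0.24 did not pass (95% interval 0.07 to 0.42, limma adjusted p = 0.168). Ts, thymidylate synthase, averaged 4.34 ± 0.04 in the pool and 4.33 ± 0.15 in the control (SD, n = 3 each). CycE, the cyclin that drives entry into S phase, averaged 4.42 ± 0.12 in the pool and 4.43 ± 0.11 in the control (SD, n = 3 each). Both had overlapping groups.

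Several replication genes had dim rows. Of the 19 replication genes 6 lay among the dimmest 25% of rows by mean signal (Mcm2, Mcm3, Mcm5, Orc4, Orc5 and RnrL), and of the 16 damage response genes 1, mus308. Of those dim rows 0.123% were called in all, against 3.82% of the other rows. All 6 called genes were among the 28 brighter ones.

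On the damage response side, a gene of the checkpoint clamp rose. Hus1-like, which encodes the Hus1 subunit of the ring that loads at damaged DNA, had signals of 5.68, 5.68 and 5.61 in the pool, against 5.30, 5.33 and 5.29 in the control. The groups were well apart relative to their spread, with a log2 difference of 0.35 (standard error 0.0497), a 1.27-fold rise at a limma adjusted p of 0.0109. Rad9, another subunit of the ring, had 4.85, 4.49 and 4.43 in the pool, against 4.58, 4.59 and 4.57 in the control. Its pool arrays lay on both sides of the control arrays, and the 95% interval of the log2 difference was -0.23 to 0.25. Hus1-like lies within the locus of ctrip and overlaps Gmppb in the RefSeq annotation. These neighbours were looked up after the values were seen, and neither passed the test, with log2 differences of 0.06 for ctrip (limma adjusted p = 0.657) and 0.01 for Gmppb (limma adjusted p = 0.982).

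The sensors of double-strand breaks and the checkpoint kinases did not pass. Of rad50, mre11 and nbs, 0 passed in limma and 0 had an unadjusted p under 0.05, with log2 differences of 0.04, 0.18 and -0.12 and overlapping groups. The ATM gene tefu stood at 0.09, the ATR gene mei-41 at -0.09, the Chk1 gene grp at 0.06 and p53 at 0.03, all with overlapping groups. The Chk2 gene lok had signals of 4.33, 4.34 and 4.26 in the pool, against 4.43, 4.53 and 4.41 in the control. All its pool arrays lay below the control arrays, but the log2 difference of -0.15 did not pass (95% interval -0.28 to -0.02, limma adjusted p = 0.27). Among these 5 genes 0 passed and lok alone had an unadjusted p under 0.05.

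Of the genes that rejoin or copy across broken ends, 0 of 4 passed in limma and 1, Irbp, had an unadjusted p under 0.05. Irbp, which encodes Ku70, had signals of 5.86, 5.69 and 5.45 in the pool, against 5.28, 5.49 and 5.32 in the control. Pool replicate 3 lay below the highest control array, and the log2 difference was 0.30 (95% interval 0.06 to 0.55, limma adjusted p = 0.224). Its partner Ku80 stood at 0.13, with 5.20, 5.16 and 5.27 in the pool, against 5.08, 5.16 and 5.00 in the control. The lowest pool value and the highest control value agree to 2 decimals but do not cross, and the difference did not pass (limma adjusted p = 0.384). The polymerase theta gene mus308 stood at -0.07 and the Rad54 gene okr at -0.05.

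Both measured genes of the last damage response class rose. Gadd45, a stress-response gene induced by DNA damage in mammals, had signals of 7.362, 7.540 and 7.541 on the pool arrays, against 6.848, 6.999 and 6.962 on the control arrays. It averaged 7.48 ± 0.10 in the pool and 6.94 ± 0.08 in the control (SD, n = 3 each), a log2 difference of 0.55 (standard error 0.071) and a 1.46-fold rise at a limma adjusted p of 0.0075. Irbp18 encodes a basic leucine zipper protein of the C/EBP type that pairs with Xrp1, a stress and cell competition factor that is not analysed here. Its signals were 8.84, 8.77 and 8.82 in the pool, against 8.46, 8.57 and 8.46 in the control, without overlap. The log2 difference was 0.31 (standard error 0.0563), a 1.24-fold rise at a limma adjusted p of 0.0267. Irbp18 lies within the locus of CG33947, looked up after the values were seen, whose own row stood at 0.06 (limma adjusted p = 0.704). In the same annotation no gene with an array row of its own overlaps PCNA, RPA1, Cdc7 or Gadd45.

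For all 29 genes that did not pass, the 95% interval of the difference in array signal lay within a 1.5-fold change in either direction. The widest bounds were -0.34, that of nbs, and 0.55, that of Irbp. The smallest change called anywhere on the arrays was 0.23 in absolute log2. Of the 29 genes 7 lay among the dimmest rows described above. Mcm6 and Orc1, with control means of 4.24 and 4.26, lay just above the limit of those rows (4.23). How closely such dim signals follow the amount of RNA was not tested. For dim genes the intervals therefore bound the signal and not the change in RNA.

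The calls of PCNA and Gadd45 held with any 1 of the 6 arrays left out, at limma adjusted p of up to 0.031 and 0.0399. Those of the other 4 called genes did not. RPA1 was lost without pool replicate 2 or 3 or control replicate 2 (limma adjusted p up to 0.0655), and Hus1-like without pool replicate 1 or 2 (up to 0.0547). Cdc7 kept its call without control replicate 1 but lost it without any other array (up to 0.0826), and Irbp18 kept it without control replicate 2 but lost it without any other (up to 0.108). The log2 differences moved less than the p-values, at 0.67 to 0.86 for PCNA, 0.35 to 0.42 for RPA1, 0.34 to 0.37 for Hus1-like, 0.29 to 0.35 for Irbp18, 0.50 to 0.60 for Gadd45 and -0.43 to -0.34 for Cdc7. The number of called replication genes ranged from 1 to 3 and that of called damage response genes from 1 to 3. Calls were lost over the whole array as well. With 1 array left out 218 to 312 rows were called, against 473 with all 6, and 212 to 284 of those 473 kept their call.

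**Figure D3:**
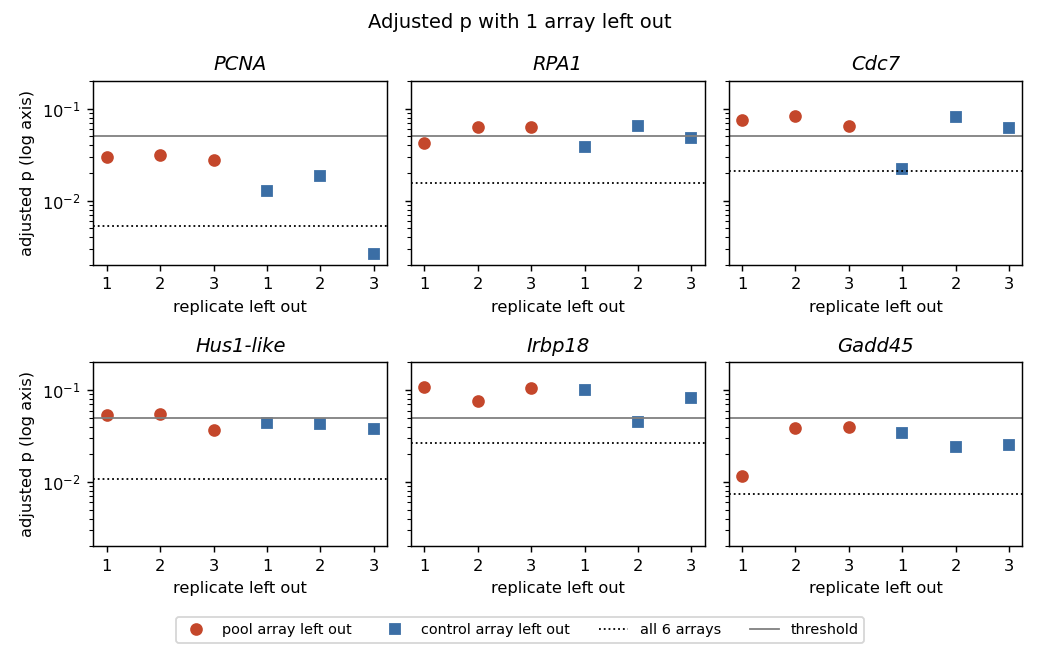
Limma adjusted p, on a log axis, of the 6 called genes with each pool array (circles) or control array (squares) left out; the dotted line is the value with all 6 arrays and the solid line the threshold of 0.05. All points of PCNA and Gadd45 lie under the threshold, while 5 of 6 points of Cdc7 and of Irbp18 lie above it.

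Other genes of the same pathways were set beside them from lists that hold no member, 103 of whose 130 genes were measured. Of these 2 rose and 0 fell (1.94% called, against 2.9% of all rows), while 17 had an unadjusted p under 0.05 in limma, as did 14.8% of all rows. Of 30 further replication fork genes 0 passed and 3 had an unadjusted p under 0.05. PolD2, a subunit of the replicative polymerase delta that PCNA tethers, came closest. It had signals of 4.85, 4.86 and 4.85 in the pool, against 5.05, 5.16 and 5.24 in the control, a log2 difference of -0.30 (limma adjusted p = 0.0502). It passed under 3 of 7 other settings for all 6 arrays (lowest adjusted p = 0.0377). The GINS helicase gene Psf3 stood at 0.21 (limma adjusted p = 0.126).

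Of 33 further repair genes 0 passed in limma and 3 had an unadjusted p under 0.05, with log2 differences from -0.18 to 0.23. The ATRIP gene mus304, partner of mei-41, stood at -0.18 (limma adjusted p = 0.158), and PolZ1, the catalytic subunit of translesion polymerase zeta, at 0.18 (limma adjusted p = 0.22). In neither gene did the groups overlap. The list's median was 0.02.

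Of 17 E2F and mitotic genes 1 rose and 0 fell, and 2 had an unadjusted p under 0.05. The 1 that rose was Cks30A, a small cofactor of cyclin-dependent kinases, with signals of 5.15, 5.07 and 4.98 in the pool, against 4.71, 4.55 and 4.68 in the control. Its groups did not overlap, and the log2 difference was 0.42, or 1.34-fold (limma adjusted p = 0.0204). The call was lost without pool replicate 1 or 2 or control replicate 2 or 3 (limma adjusted p up to 0.0798). The S phase transcription factor gene E2f1, named after its values were seen, stood at -0.04 (limma adjusted p = 0.774). The list's median was -0.01.

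Of 12 apoptosis genes 0 passed in limma and 5 had an unadjusted p under 0.05, against 14.8% of all rows. Of these 5 genes 4 were higher in the pool and 1, the caspase gene Strica, was lower. The list's median of 0.10 was the highest of these 5 lists, with 8 genes higher and 4 lower in the pool. After median centring the split was 6 and 6, with a list median of 0.07, against -0.03 over all rows. Dark, which encodes the fly Apaf-1, had 6.90, 6.86 and 6.84 in the pool, against 6.67, 6.48 and 6.71 in the control (log2 difference 0.24, limma adjusted p = 0.135). The death gene grim, which acts like rpr and hid, had 7.87, 8.09 and 7.93 in the pool, against 7.80, 7.67 and 7.64 in the control (log2 difference 0.26, limma adjusted p = 0.143). The arrays of both genes separated by group. Strica, named after its values were seen, had 4.81, 4.84 and 4.75 in the pool, against 4.93, 5.17 and 4.95 in the control (log2 difference -0.22, limma adjusted p = 0.214).

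Of 11 genes listed as partners of Xrp1 or of the integrated stress response 1 rose and 0 fell, and 4 had an unadjusted p under 0.05. These 4 split by direction, with Ets21C and puc (0.22) higher and PEK (-0.18) and RpS12 (-0.13) lower in the pool. The genes puc, PEK and RpS12 are named after their values were seen. The 1 that rose was Ets21C, a transcription factor gene induced by JNK signalling, with signals of 4.88, 4.82 and 4.74 in the pool, against 4.38, 4.37 and 4.52 in the control. The groups of Ets21C did not overlap, and the log2 difference was 0.39, or 1.31-fold (limma adjusted p = 0.0227). Removing pool replicate 1, pool replicate 2, control replicate 1 or control replicate 2 ended the call (limma adjusted p up to 0.0868). The list's median was 0.01.

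**Figure D4:**
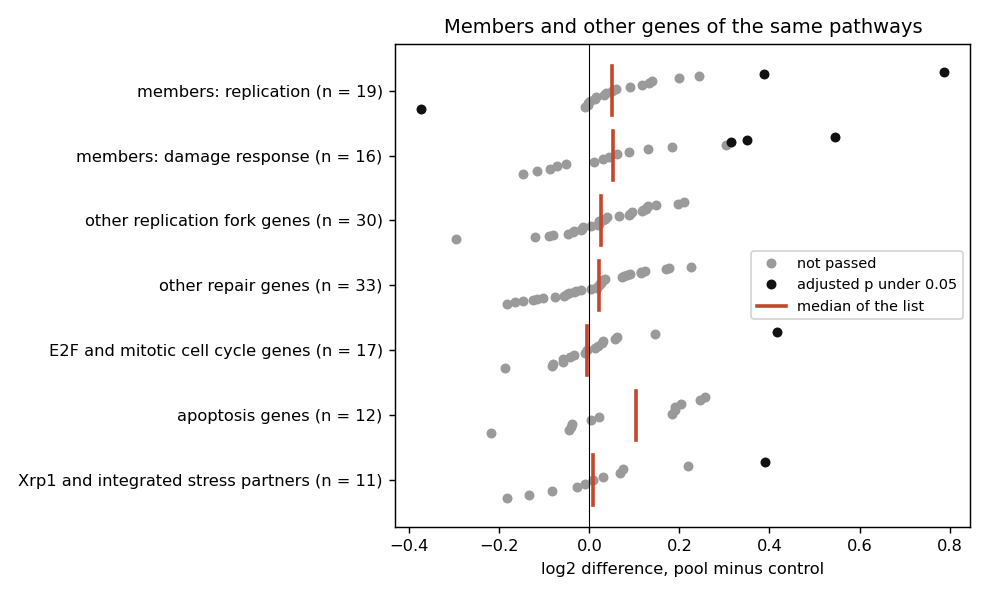
Log2 difference, pool minus control, of each measured gene in the replication and damage response sets and in 5 lists of other genes of the same pathways; black marks genes that passed an adjusted p of 0.05 and the red line is the list's median. The medians lie between -0.01 and 0.10, and each list outside the members holds at most 1 black point.

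Markers of several cell types differed between the same groups. Of 4 measured flight muscle markers 3 rose, Act88F by 1.96, fln by 1.90 and TpnC4 by 1.16 on the log2 scale (limma adjusted p up to 0.000118). The list's mean signal was 8.27 to 8.34 on pool arrays and 6.89 to 7.05 on control arrays. Of 6 fat body markers Lsp2 rose by 1.33 and Obp99b by 0.55 on the log2 scale, while the other 4 were lower in the pool and did not pass, so that the list's median difference was -0.04. Its mean signal, which Lsp2 moves most, was 10.44 to 10.46 in the pool and 10.17 to 10.20 in the control. Of 6 hemocyte markers PPO1 and PPO2 fell, 2 others were lower and 2 higher in the pool without passing (NimC1 at 0.18 and Pxn at 0.02), with a mean signal of 7.63 to 7.68 in the pool and 7.75 to 7.81 in the control. Of 5 glial markers wrapper fell, while repo (-0.18), alrm (-0.17), Gs2 (-0.00) and moody (0.20) did not pass. Their mean signal with wrapper was 9.09 to 9.12 in the pool and 9.23 to 9.24 in the control. Of 3 photoreceptor markers chp rose, a call lost with any 1 of the 6 arrays left out (limma adjusted p up to 0.119). The list's mean signal was 12.11 to 12.18 in the pool and 11.93 to 11.97 in the control. No array row reads 0 on this scale. The part of these cell types in the differences of the replication and damage genes was not tested.

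Markers of neuroblasts and of the germline did not pass the test. Of 6 neuroblast markers (dpn, mira, ase, wor, insc and pros) 0 passed in limma and 0 had an unadjusted p under 0.05, with a mean signal of 5.19 to 5.27 in the pool and 5.22 to 5.29 in the control. Of 5 germline markers (vas, bam, osk, aub and piwi) 0 passed and 0 had an unadjusted p under 0.05, with 4.057 to 4.078 in the pool and 3.999 to 4.082 in the control. The 4 neuronal markers gave 9.68 to 9.79 in the pool and 9.60 to 9.70 in the control, with 0 calls and 0 unadjusted p under 0.05.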

How the data were processed

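The deposited table gives each row 6 log2 signals, 1 for every array; that scale was inferred from their range (3.20 to 14.02). The authors used Affymetrix Expression Console, per the submitters' processing notes. Neither its version, its algorithm nor a build is stated there, so no coordinates are printed and any normalization between arrays is part of each value. No read depth exists for arrays, and their number limits the precision. Rows were named through the platform's annotation and the RefSeq table of Release 6 plus ISO1 MT (13441 rows with 1 symbol, 555 with several, 2326 with none; 144 symbols updated). Each member had 1 row, so averaging over rows changes nothing.

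Pool and control were compared with lmFit and eBayes in limma 3.58.1 (R 4.3.3), two-sided, over all 16322 rows with no filter, as log2 pool minus control (residual degrees of freedom 4, prior 3.78). The steps were run on simulated arrays with independent noise in each value, which do not imitate noise shared between rows or arrays. Alternatives were quantile normalization, median centring, the replicate number as a block, dropping the dimmest 25% of rows, keeping rows of 1 symbol, eBayes with trend and robust settings, array weights and leaving out each array. All members are named. From each pathway list the called genes are named or, with 0 called, the 2 of smallest p, and from each marker list the called ones. Other genes of these lists are named after their values were seen or to list a marker set. Members, lists and tests were chosen with earlier results of these data known. Promoter motifs were not analysed here. Figures were drawn with matplotlib 3.10.9.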

Additional observations from a re-analysis of the deposited data

How the results depend on the processing

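With all 6 arrays, 3 replication and 3 damage response genes were called under quantile normalization, median centring and the filter on dim rows. They were the same genes, also with rows of 1 symbol, trend and robust settings and array weights. Leaving CycE out of the replication set could not change its count, since CycE was not called. The death genes rpr and hid have no row of their own, so leaving them out of the damage set removed nothing. The replicate number as a block left 1 called replication gene and 2 called damage response genes, 1 called gene of the other pathway lists and 312 called rows. RPA1 (adjusted p = 0.0502), Cdc7 (0.053) and Irbp18 (0.0934) were the members whose call ended. The numbers are not known to pair the arrays: deviations from the group means of same-numbered arrays correlated at -0.01, -0.00 and 0.09, and not every array correlated best with its own number. The block left each log2 difference as it was, at 0.39 for RPA1 and -0.37 for Cdc7. It changed the error estimate and its degrees of freedom, whose parts in the lost calls were not tested apart. Trend and robust settings called 861 rows and 4 other pathway genes, against 473 and 2. With 1 array left out there were 218 to 312 called rows, 1 to 3 called replication genes, 1 to 3 called damage response genes and 0 to 2 called genes of the other pathway lists (13 to 20 of these had an unadjusted p under 0.05 in limma).

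Of the 52 genes that are members or were named by the rule, 11 changed sign under some setting, none of them called. With 1 array left out, log2 differences ran from -0.057 to 0.036 for RPA2, -0.021 to 0.11 for Mcm2, -0.042 to 0.10 for Mcm3, -0.025 to 0.070 for dpa, -0.028 to 0.17 for Mcm5, -0.082 to 0.049 for Orc4, -0.081 to 0.061 for Orc5, -0.044 to 0.10 for Ts, -0.060 to 0.060 for CycE, -0.12 to 0.091 for Rad9 and -0.035 to 0.081 for p53. Median centring lowered every difference by the same amount and moved the median of all rows to -0.03. It turned Mcm3 (-0.00037), dpa (-0.018), Orc4 (-0.031), Ts (-0.020), Rad9 (-0.023) and p53 (-0.0030). As deposited, the differences of these genes were positive and at most 0.032, that of Mcm3. Quantile normalization turned RPA2 (0.0044) and CycE (0.011), and array weights Orc4 (-0.0076) and Rad9 (-0.00096). The cause of the sign changes under settings other than median centring was not tested. Dim signals limit what can be said of Mcm2, Mcm3, Mcm5, Orc4, Orc5, RnrL and mus308.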
